A study of Homo sapiens with 16 samples.

Results

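The 10 genes described here encode chemokines and a chemokine receptor: the CXC ligands CXCL1, CXCL2, CXCL3, CXCL5, CXCL6, CXCL8 and CXCL16, the CC ligands CCL2 and CCL20, and the receptor CXCR4. They were taken as the probe sets of the deposited array table annotated with exactly 1 of these symbols. This gave 17 of the 41091 probe sets that carried 1 gene name, and 10 of 19775 genes. Each gene was followed on its brightest probe set, the one with the highest mean over all arrays, and its other probe sets are given beside it. The genes were chosen with their responses to treatment in both cell lines known, several of them because they moved in opposite directions. Their responses are therefore described with their errors and carry no test.

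Expression was read from 16 Affymetrix U133 Plus 2.0 arrays of 1 colour. The 4 groups, each with 4 biological replicates lettered A to D, were MDA-MB-231 cells with 2DG, MDA-MB-231 cells with vehicle, MCF10A cells with 2DG and MCF10A cells with vehicle. MDA-MB-231 is an established human breast cancer line, and MCF10A an immortalized, non-tumorigenic human mammary epithelial line. 2DG (2-deoxy-glucose, 50 mM) is a glucose analogue that inhibits glycolysis, water was the vehicle, and harvest followed after 24 h. All groups grew in DMEM/F12 with 17.5 mM glucose, but MDA-MB-231 cells had fetal bovine serum, and MCF10A cells had horse serum with hydrocortisone, cholera toxin, insulin and hEGF. Line and medium cannot be told apart, and each kind of cell is represented by a single line.

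Chemokines are small secreted proteins that steer migrating cells along a gradient by binding G protein-coupled receptors. CXCL1, CXCL2, CXCL3, CXCL5, CXCL6 and CXCL8 share an ELR motif, bind CXCR1 or CXCR2 and attract neutrophils. Epithelial cells make many of them when interleukin 1, tumour necrosis factor or microbial products activate the transcription factor NF-kB. CXCL16 is made as a membrane protein and shed, CCL2 attracts monocytes, CCL20 attracts cells that carry CCR6, and CXCR4, the receptor of CXCL12, is known in breast cancer for its part in cell migration.

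Values are log2 RMA values, a scale on which 1 unit is a doubling of signal, and RMA gives no call of detection. To show where undetected genes lie, 17 measured genes of other tissues, such as liver and retina, were read on the same arrays. Their group means ranged from 3.7 to 7.35 with a median of 5.6, and values in this range are not evidence of expression. The epithelial markers CDH1 (E-cadherin) and KRT14 averaged 5.31 and 5.71 in MDA-MB-231 cells with 2DG, against 13.52 and 13.31 in MCF10A cells with 2DG. KRT5 averaged 7.10 and 13.59 in these groups. Of 6 measured basal epithelial markers, 4 passed the 90th percentile of the undetected genes in MDA-MB-231 and 6 in MCF10A. This percentile, 6.36 to 6.42 by group, lies within the range of undetected genes, so passing it alone is not evidence of expression. KRT5 in MDA-MB-231 passed it within that range. ZEB1, a mesenchymal factor, averaged 11.41 in MDA-MB-231 cells with 2DG, against 7.61 in MCF10A cells with 2DG, while SPARC went against its list with 5.70 and 10.44. VIM was high in both lines, at 14.76 and 14.18 with 2DG. In every group 8 of 10 measured mesenchymal markers passed that percentile. Of 9 fibroblast markers 3 to 5 passed it per group, and of 6 endothelial markers 2 or 3. Of 10 measured leukocyte markers, 1 or 2 per group passed the 90th percentile of the undetected genes, and PTPRC and SPI1 lay below it in every group. CD14 passed it in MCF10A only, at 8.72 with 2DG and 8.10 on vehicle, above the whole range of undetected genes. CD3E passed it only in MDA-MB-231 with 2DG, at 6.47, within that range. The actin 3'/5' control difference, which grows as RNA degrades, was 0.97 to 1.13 in MDA-MB-231 arrays with 2DG, against 0.38 to 1.09 on vehicle, where replicate B held the 1.09. In MCF10A it was 0.5 to 0.65 with 2DG, against 0.34 to 0.49 on vehicle.

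The promoters of 8 of the 10 genes had an entry among RefSeq promoters (GRCh38.p14). CXCR4 had 3 listed promoters, and only the one with the most upstream start was read. The 120 bases before the start of each gene are shown because the ligand promoters share a stretch of letters near the same place, which the selection of the genes did not use. They run 5' to 3' on the gene's strand, with capitals for matches to the NF-kB site (kappaB) letters.

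CXCL1, chr4:73869273-73869392, plus strand: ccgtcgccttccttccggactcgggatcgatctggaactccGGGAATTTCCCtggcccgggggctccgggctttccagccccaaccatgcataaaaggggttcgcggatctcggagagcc

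CXCL2, chr4:74099196-74099315, minus strand: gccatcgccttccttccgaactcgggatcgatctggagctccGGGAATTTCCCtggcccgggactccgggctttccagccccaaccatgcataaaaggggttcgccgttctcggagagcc

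CXCL3, chr4:74038690-74038809, minus strand: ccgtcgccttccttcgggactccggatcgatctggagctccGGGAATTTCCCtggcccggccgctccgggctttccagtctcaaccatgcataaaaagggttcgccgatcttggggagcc

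CXCL5, chr4:73998678-73998797, minus strand: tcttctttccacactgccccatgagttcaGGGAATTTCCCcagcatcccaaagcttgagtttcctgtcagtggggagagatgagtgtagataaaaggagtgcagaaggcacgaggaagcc

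CXCL6, chr4:73836558-73836677, plus strand: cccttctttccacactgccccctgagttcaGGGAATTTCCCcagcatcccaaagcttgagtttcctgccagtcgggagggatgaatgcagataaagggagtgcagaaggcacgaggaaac

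CXCL8, chr4:73740449-73740568, plus strand: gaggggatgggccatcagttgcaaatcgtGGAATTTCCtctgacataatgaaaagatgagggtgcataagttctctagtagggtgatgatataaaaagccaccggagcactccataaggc

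CCL20, chr2:227813722-227813841, plus strand: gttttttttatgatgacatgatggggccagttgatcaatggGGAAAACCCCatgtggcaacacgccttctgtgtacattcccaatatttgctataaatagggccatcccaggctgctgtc

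CXCR4, chr2:136118150-136118269, minus strand: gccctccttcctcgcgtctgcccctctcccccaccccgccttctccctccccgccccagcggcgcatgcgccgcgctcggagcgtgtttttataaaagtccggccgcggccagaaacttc

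GGAATTTCC, the core of a kappaB site, was in the promoters (250 bases before the start to 50 after it) of 6 of the 8 genes, CXCL1, CXCL2, CXCL3, CXCL5, CXCL6 and CXCL8. It occurred in 0.461% of the 35116 human promoters of the same length from RefSeq, with both strands searched. Some of the 6 promoters are near copies of each other, as given below, so their matches are not independent. The broader kappaB consensus, which overlaps these letters, was also in 6 of 8, against 5.91% of all promoters, and the 6 were those of CCL20 and of the same genes without CXCL8. In the ELR ligands the core letters lay between positions -91 and -69 from the start, and the consensus match of CCL20 was on the opposite strand at -79 to -70. The AP-1 letters TGANTCA were found in 1 of 8, CXCL8, at -137 to -131, against 7.71% of all promoters. TATAAA was in 3 of 8, CXCL8, CCL20 and CXCR4, against 11.5%. The C/EBP-ATF letters TGATGNAA and the E-box CACGTG were in 0 of 8, against 3.62% and 7.26%. A match describes these letters only, and no binding was measured.

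The windows also show which genes are near copies. Those of CXCL1 and CXCL2 were 93.4% identical, CXCL1 and CXCL3 90.8%, CXCL2 and CXCL3 88.5%, and CXCL5 and CXCL6 90.9%, whereas the other pairs had 39.3% to 55.6%. The 6 ELR ligands lie in a cluster on chromosome 4 in the order CXCL8, CXCL6, PF4V1, CXCL1, PF4, PPBP, CXCL5, CXCL3, CXCL2. Since CXCL1, CXCL2 and CXCL3 are close paralogs, a probe set of any of them may read the others in part, and their separate values are uncertain to that degree. The matches are drawn in the plot of motif positions.

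**Figure D1:**
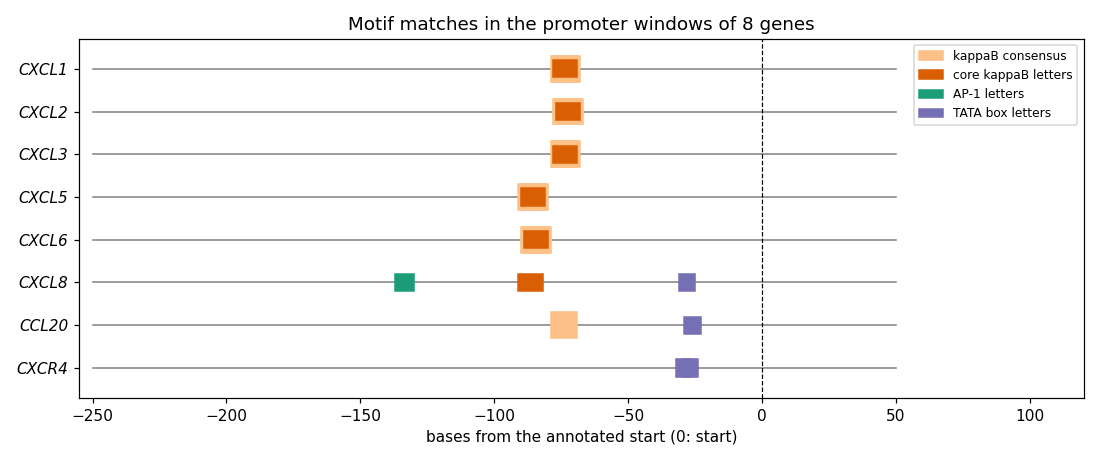
Positions of motif matches (coloured boxes) in the promoter windows of 8 genes, in bases from the annotated start, with grey lines for the searched window from 250 bases before to 50 bases after the start. The core kappaB letters sit between positions -91 and -69 in the 6 ELR ligands, and CCL20 has a consensus match at a like distance. The CXCR4 window, that of its most upstream start, has TATA box letters only.

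CXCL8, also called interleukin 8 a potent neutrophil attractant, had the widest swing between the lines. On its brightest probe set (202859_x_at) it measured 10.06, 9.99, 9.95 and 9.93 in MDA-MB-231 cells with 2DG, against 7.95, 7.98, 8.08 and 8.28 on vehicle. In MCF10A cells it measured 7.48, 7.54, 7.55 and 7.45 with 2DG, against 11.79, 11.73, 11.77 and 11.76 on vehicle. No groups overlapped, and the order of levels was MCF10A vehicle, MDA-MB-231 2DG, MDA-MB-231 vehicle and MCF10A 2DG. The change with 2DG was 1.91 ± 0.0589 in MDA-MB-231 (SE, n = 4 per group; 95% interval 1.78 to 2.04), a level 3.76-fold higher. In MCF10A it was -4.26 ± 0.0589 (-4.38 to -4.13), a level 19.1-fold lower. The MCF10A values with 2DG lay just above the range of undetected genes, so this fold may be limited by the array's lower end. The difference of the responses was 6.17 ± 0.0834. These arrays measure bulk RNA, so fewer expressing cells and less RNA per cell cannot be told apart here or below. The second probe set (211506_s_at) gave 1.79 ± 0.158 in MDA-MB-231 and -4.295 ± 0.158 in MCF10A. On it MDA-MB-231 vehicle replicate B, the array with the high actin difference, read 5.83 beside 6.54 to 6.62 in the other vehicle arrays. On this probe set MCF10A with 2DG (mean 5.895) and MDA-MB-231 on vehicle (mean 6.40) overlapped, both within the range of undetected genes.

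CXCL1, a neutrophil attractant that acts through CXCR2, was highest in MCF10A on vehicle. The MDA-MB-231 arrays read 6.56, 6.53, 6.04 and 6.57 with 2DG, against 6.42, 6.25, 6.25 and 6.69 on vehicle. It measured 7.95, 8.17, 8.73 and 8.59 in MCF10A cells with 2DG, against 11.95, 12.03, 11.97 and 12.01 on vehicle. The MDA-MB-231 groups overlapped each other, within the range of undetected genes, and the MCF10A groups lay apart above them. The change in MDA-MB-231 was 0.02 ± 0.157 (95% interval -0.31 to 0.36), and that in MCF10A was -3.63 ± 0.157 (-3.96 to -3.30), a level 12.4-fold lower.

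CXCL2, which acts on the same receptor, was also lower with 2DG in MCF10A. Its brightest probe set (209774_x_at) measured 6.67, 6.64, 6.47 and 6.70 in MDA-MB-231 cells with 2DG, against 6.89, 6.78, 7.02 and 6.90 on vehicle. In MCF10A cells it measured 8.11, 8.07, 8.26 and 8.12 with 2DG, against 10.61, 10.38, 10.46 and 10.58 on vehicle. All 4 groups lay apart, in the order MCF10A vehicle, MCF10A 2DG, MDA-MB-231 vehicle and MDA-MB-231 2DG. The change was -0.28 ± 0.0668 in MDA-MB-231 (95% interval -0.42 to -0.14) and -2.37 ± 0.0668 in MCF10A, a level 5.16-fold lower. The size depended on the probe set: 1569203_at, with group means from 4.17 to 5.30, changed by -0.02 in MDA-MB-231 and -0.87 in MCF10A, and the dim 230101_at by 0.05 and 0.005. With the actin difference as a covariate the MDA-MB-231 change of the brightest probe set was -0.19.

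CXCL3, the third of these paralogs, differed in direction between the lines. It measured 7.30, 7.20, 7.11 and 7.29 in MDA-MB-231 cells with 2DG, against 6.57, 6.38, 6.41 and 6.40 on vehicle. In MCF10A cells it measured 6.55, 6.14, 6.27 and 5.98 with 2DG, against 7.71, 7.57, 7.78 and 7.82 on vehicle. MCF10A vehicle was the highest group and MDA-MB-231 2DG the next, while MDA-MB-231 vehicle and MCF10A 2DG overlapped. All groups but MCF10A vehicle lay within the upper range of undetected genes. The change was 0.785 ± 0.0956 in MDA-MB-231 (95% interval 0.58 to 0.99), a level 1.72-fold higher, and -1.485 ± 0.0956 in MCF10A (-1.69 to -1.28), a level 2.8-fold lower. The difference of the responses was 2.27 ± 0.135.

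CXCL5 and CXCL6, whose proteins attract neutrophils as well, stayed at or below the values of undetected genes in every group. CXCL5 averaged 3.44 ± 0.142 in MDA-MB-231 cells with 2DG and 3.38 ± 0.0866 on vehicle, and 3.42 ± 0.187 in MCF10A cells with 2DG and 3.87 ± 0.148 on vehicle (SD, n = 4). Its change was 0.065 ± 0.095 in MDA-MB-231 and -0.45 ± 0.095 in MCF10A. A second probe set of CXCL5 (214974_x_at) read 3.35, 3.18, 3.37 and 3.02 in MCF10A with 2DG, against 4.77, 4.10, 4.92 and 4.44 on vehicle, and the third (207852_at) changed by -0.195. The probe sets of CXCL5 thus differed in the size of the MCF10A change, all at dim values. CXCL6 lay between 2.94 and 3.46 on all arrays, with changes of -0.12 ± 0.0762 in MDA-MB-231 and -0.14 ± 0.0762 in MCF10A.

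**Figure D2:**
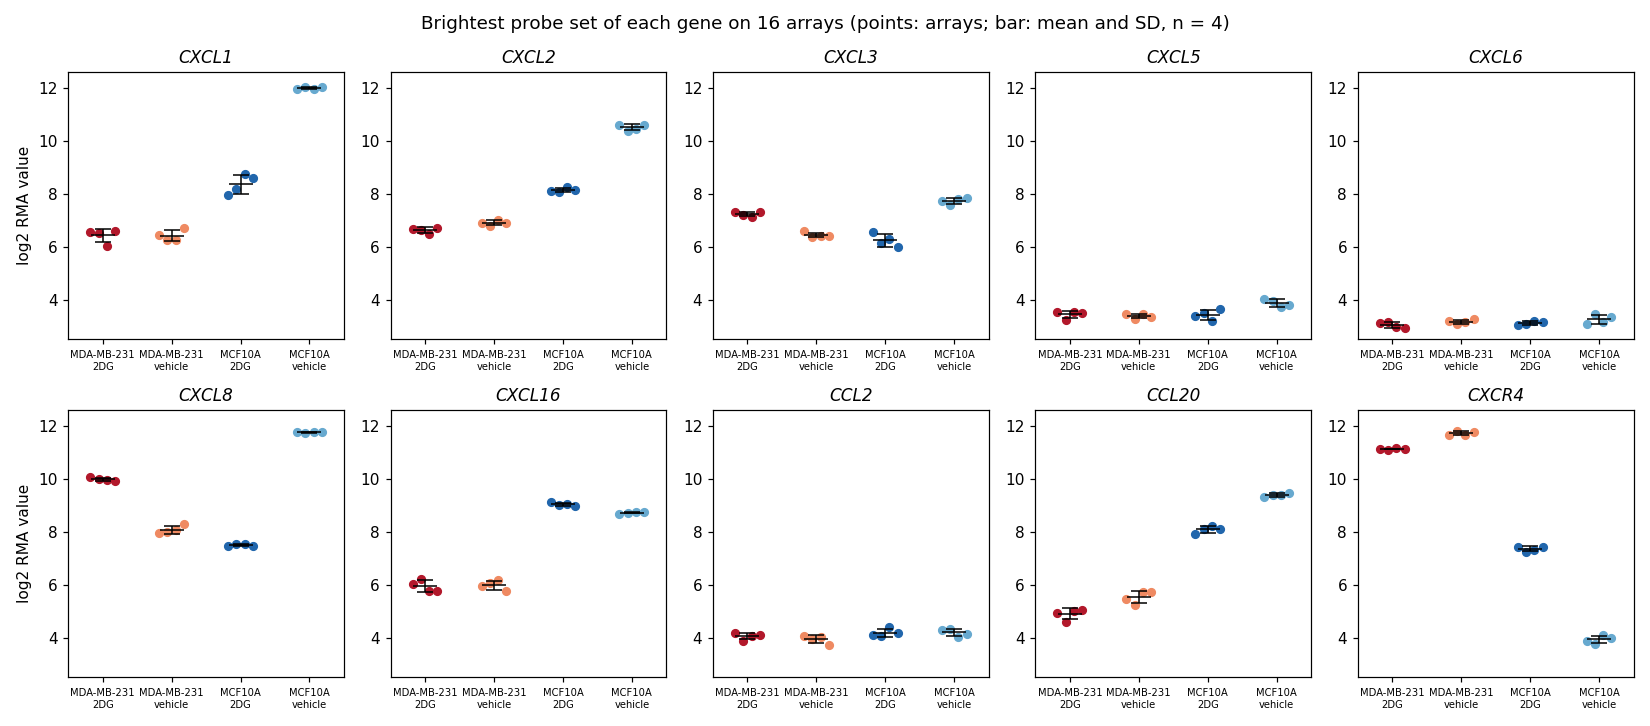
Log2 RMA value (vertical axis) of the brightest probe set of each of the 10 genes, with a point per array and a bar for mean and SD (n = 4) in each group. CXCL1, CXCL2, CXCL8 and CCL20 are highest in MCF10A vehicle, CXCR4 is highest in MDA-MB-231, and CXCL5, CXCL6 and CCL2 stay below 4.5 on all arrays.

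CXCL16, the membrane-anchored ligand of CXCR6 and a scavenger of oxidized lipoprotein, responded little and in MCF10A differed in direction from the ELR ligands. It measured 6.02, 6.22, 5.75 and 5.76 in MDA-MB-231 cells with 2DG, against 5.94, 6.05, 6.18 and 5.78 on vehicle. In MCF10A cells it measured 9.11, 9.01, 9.05 and 8.99 with 2DG, against 8.69, 8.72, 8.75 and 8.75 on vehicle. The MDA-MB-231 groups overlapped within the range of undetected genes, and the MCF10A groups lay apart by a small step. The change was -0.05 ± 0.0944 in MDA-MB-231 and 0.31 ± 0.0944 in MCF10A (95% interval 0.11 to 0.51), a level 1.24-fold higher.

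Among the CC ligands, CCL20 was lower with 2DG in both lines. It measured 4.95, 4.59, 5.02 and 5.04 in MDA-MB-231 cells with 2DG, against 5.47, 5.25, 5.73 and 5.71 on vehicle. In MCF10A cells it measured 7.91, 8.12, 8.23 and 8.11 with 2DG, against 9.30, 9.40, 9.38 and 9.48 on vehicle. All 4 groups lay apart, but both MDA-MB-231 groups were among the values of undetected genes. The change was -0.64 ± 0.111 in MDA-MB-231 (95% interval -0.88 to -0.40) and -1.30 ± 0.111 in MCF10A (-1.53 to -1.06), where the level was 2.46-fold lower. With the actin difference as a covariate the MDA-MB-231 change of CCL20 was -0.46. CCL2 lay between 3.74 and 4.39 on all arrays, with overlapping groups and changes of 0.12 ± 0.0895 in MDA-MB-231 and -0.02 ± 0.0895 in MCF10A.

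CXCR4 went in the direction opposite to CXCL8 in both lines. On its brightest probe set (217028_at) it measured 11.13, 11.11, 11.15 and 11.13 in MDA-MB-231 cells with 2DG, against 11.66, 11.81, 11.67 and 11.78 on vehicle. In MCF10A cells it measured 7.44, 7.25, 7.33 and 7.43 with 2DG, against 3.88, 3.78, 4.10 and 4.00 on vehicle. MCF10A values thus lay near the top of the range of undetected genes with 2DG and near its bottom on vehicle, and both MDA-MB-231 groups lay far above it. The change was -0.60 ± 0.0631 in MDA-MB-231 (95% interval -0.73 to -0.47), a level 1.52-fold lower, and 3.42 ± 0.0631 in MCF10A (3.29 to 3.56), a level 10.7-fold higher. The difference of the responses was -4.02 ± 0.0893. The size in MCF10A depended on the probe set, with 1.45 ± 0.0968 on 209201_x_at and 1.615 ± 0.12 on 211919_s_at, while these gave -0.705 and -0.73 in MDA-MB-231.

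**Figure D3:**
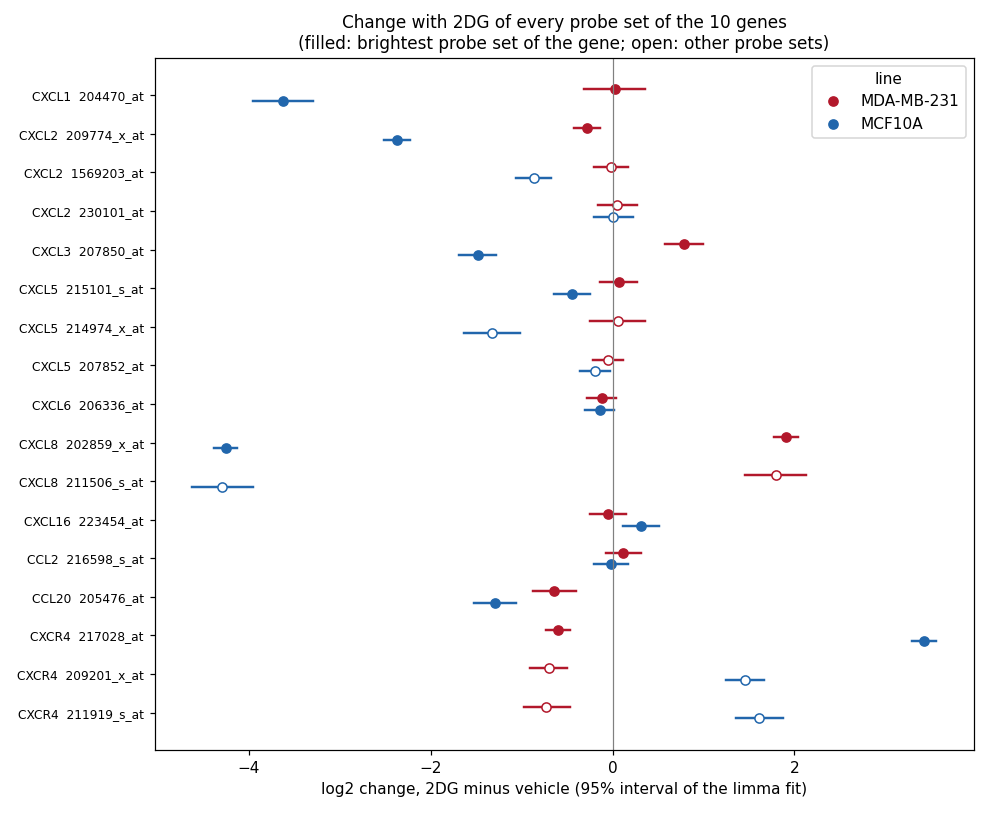
Log2 change with 2DG (2DG minus vehicle) of all 17 probe sets, with the 95% interval of the limma fit; filled points are the brightest probe set of a gene and open points its other probe sets. Both CXCL8 probe sets and all 3 CXCR4 probe sets lie on opposite sides of 0 in MDA-MB-231 and MCF10A.

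In MDA-MB-231, 2DG went with a higher level in 2 of 10 genes and a lower level in 3 at a limma adjusted p under 0.05, where 25.5% and 25.4% of all 19775 genes were called in these directions. In MCF10A 2 were higher and 6 lower, where 29.0% and 25.2% of all genes were called. CXCL3 and CXCL8 (2 of 10) were higher in MDA-MB-231 and lower in MCF10A with 2DG, as were 3.59% of all genes, and CXCR4 (1 of 10) was lower in MDA-MB-231 and higher in MCF10A, as were 4.64%. CXCL2, among the 3 lower in MDA-MB-231, was not called on its second probe set or with the actin difference as a covariate. The median change of the 10 genes was -0.01 in MDA-MB-231, against 0.03 over all genes, and -0.87 in MCF10A, against 0.02 over all genes. For the difference of responses, 45.8% of all genes were called. These counts describe a set chosen on the same responses, and nothing is read from them.

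The comparison of the lines on vehicle was not itself what the genes were chosen on, but it shares its arrays with the responses that chose them, so its p-values are not independent of the choice. On vehicle, 8 of the 10 genes were lower and 1 higher in MDA-MB-231 than in MCF10A (limma adjusted p under 0.05), where 26.8% and 29.2% of all genes were called. CXCL1 was lower by 5.59 on the log2 scale, a level 48.1-fold lower (limma adjusted p = 1.50e-14), CXCL8 was 12.9-fold lower (1.55e-17), CXCL2 12.2-fold (9.38e-17), CCL20 14.4-fold (2.19e-14) and CXCL16 6.68-fold (2.00e-13). For CXCL1, CXCL2, CCL20 and CXCL16 the MDA-MB-231 values lay within the range of undetected genes, so these folds may be limited by the array's lower end. On the second probe set of CXCL2 the fold was 2.15 (1.19e-08). CXCL3 differed by -1.28 (4.30e-09), with MDA-MB-231 values in the same range, and CXCL5 by -0.495 at dim values (2.50e-04). CCL2 differed by -0.26 (0.0205), with overlapping groups, and did not pass with the actin difference as a covariate (0.0508) or without MCF10A vehicle replicate A or B or MDA-MB-231 vehicle replicate D. CXCL6 did not pass (-0.10, 0.31). CXCR4 was the gene that stood higher in MDA-MB-231, by 7.79 (1.28e-20), a level 221-fold higher on the brightest probe set and 42.4-fold and 47.8-fold higher on the others, each against MCF10A values of undetected genes.

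The comparison with 2DG equals that on vehicle plus the difference of the responses, on which genes were chosen, so it is a description with no test. CXCL8 was 5.57-fold higher in MDA-MB-231 than in MCF10A, the opposite of its order on vehicle. Its MCF10A values with 2DG lay just above the range of undetected genes. CXCL3 was 1.99-fold higher, with both groups in the range of undetected genes. CXCL1 was 3.82-fold lower in MDA-MB-231, CXCL2 2.87-fold, CCL20 9.14-fold and CXCL16 8.59-fold, each against MDA-MB-231 values in that range. On the second probe set of CXCL2 the fold was 1.19 and the groups overlapped. CXCR4 was 13.6-fold higher, and CXCL5, CXCL6 and CCL2 differed by 0.02, -0.08 and -0.12 on the log2 scale. At a limma adjusted p under 0.05, 3 of 10 genes were higher and 4 lower, where 30.7% and 28.8% of all genes were called, and nothing is read from this count.

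The partners of these chemokines and lists of related genes were then read. The lists were chosen with earlier results of these data known, so their counts and p-values are descriptions. CXCR1 and CXCR2, the receptors of the ELR ligands, CCR2, the receptor of CCL2, CCR6, the receptor of CCL20, and CXCL12, the ligand of CXCR4, did not pass in either line (limma adjusted p from 0.185 to 0.956), and their group means, from 3.195 to 6.905, were at or below those of undetected genes. CXCR6, the receptor of CXCL16, changed by 0.215 in MDA-MB-231 (adjusted p = 0.0283) on a probe set with overlapping groups, and its other probe set by -0.04. The exception was ACKR3, the atypical receptor that binds CXCL12 along with CXCR4 and removes it from the surroundings. ACKR3 lay between 3.90 and 4.21 in MDA-MB-231 cells with 2DG, against 4.02 to 4.27 on vehicle. In MCF10A it measured 9.08, 9.01, 8.91 and 8.93 with 2DG, against 4.82, 4.85, 4.99 and 4.67 on vehicle. It did not pass in MDA-MB-231 (-0.02, limma adjusted p = 0.883) and rose in MCF10A by 4.15 ± 0.0786 (SE, n = 4 per group; 1.81e-16), and the difference of the responses was -4.17 (8.04e-14). The dimmer probe sets of ACKR3 moved by 0.02 and 0.37 in MCF10A, so the size rests on the brightest. In MCF10A both receptors of CXCL12 were thus higher with 2DG, while CXCL12 itself read as undetected in both lines.

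**Figure D4:**
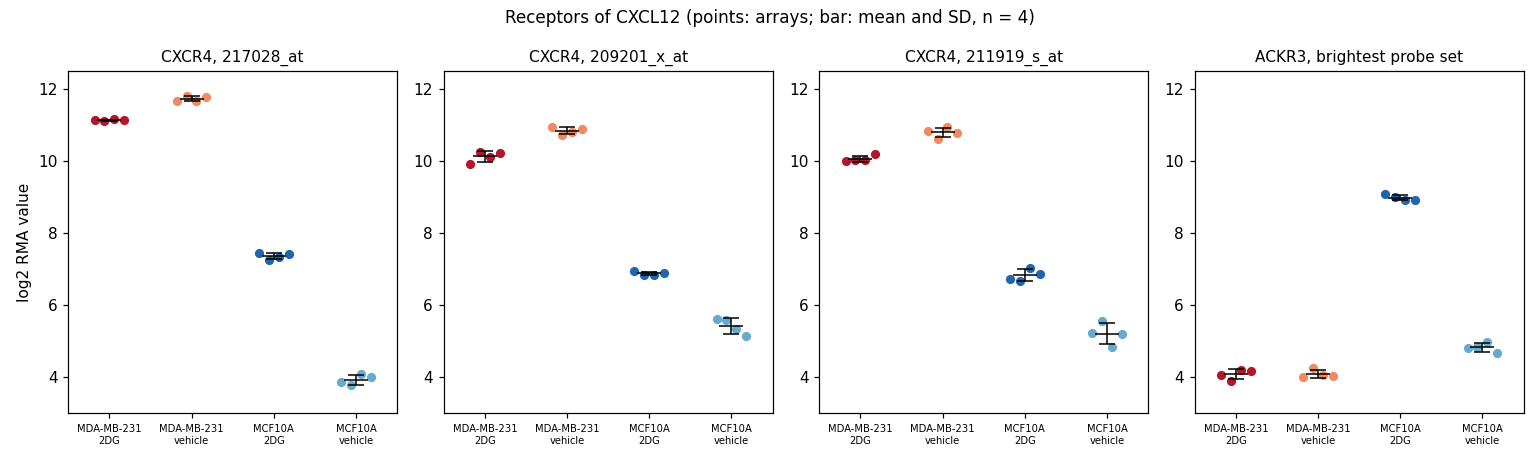
Log2 RMA value (vertical axis) of the 3 CXCR4 probe sets and of the brightest ACKR3 probe set, with a point per array and a bar for mean and SD (n = 4). In MCF10A all of them are higher with 2DG than on vehicle, whereas in MDA-MB-231 CXCR4 is slightly lower with 2DG and ACKR3 stays near 4.

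Few other chemokine genes passed the test. Of 30 other chemokine ligands measured, 4 rose and 1 fell in MDA-MB-231, and 2 rose and 4 fell in MCF10A. These counts were below the shares over all genes, and the median changes were 0.015 and 0.02. Brighter genes had a larger share of calls in a fit of their own. When the 9886 genes with a mean above the median were fitted and adjusted alone, 8116 passed in MDA-MB-231. In the main fit 10057 of all 19775 passed. The fits differ in their adjustment, so the smaller count is not a part of the larger. Several of the ligands named below lay at values of undetected genes, so nothing is read from the low counts. CCL26, an eosinophil attractant, rose by 0.72 ± 0.139 in MDA-MB-231 (limma adjusted p = 3.10e-04) at values of undetected genes, and the other rises there, CXCL17, CCL5 and CCL16, were 0.15 to 0.18. PPBP and PF4, the platelet chemokine genes that lie between CXCL1 and CXCL5, lay at values of undetected genes. Neither passed in MDA-MB-231, and in MCF10A PPBP fell by 1.095 ± 0.0983 (4.72e-08) and PF4 fell by 0.455 ± 0.0894 (3.27e-04). CXCL11 changed by -0.31 in MCF10A, and CCL27 and CX3CL1 rose by 0.415 and 0.14. CCL28, a mucosal epithelial chemokine, fell by 0.90 ± 0.0471 in MDA-MB-231 (6.74e-11) and by 0.64 ± 0.0471 in MCF10A (3.59e-09), but its other probe sets changed by 0.63 and 0.90 in MCF10A, so its direction there depended on the probe set.

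Of 20 other chemokine receptors, 2 were called in MDA-MB-231, both higher (CXCR5 0.13, adjusted p = 0.0137, and CXCR6), and 3 rose and 3 fell in MCF10A. Beside ACKR3, the rises in MCF10A were CCR4 (0.235) and ACKR4 (0.165), and the falls were CCRL2 (-0.32, 7.16e-04), ACKR1 (-0.31, 0.0225) and CCR8 (-0.295). The counts of ligands and receptors were not firm. With the actin difference as a covariate 1 ligand rose and 1 fell in MDA-MB-231, without MDA-MB-231 vehicle replicate B 1 receptor rose and 1 fell there, as the mean of all their probe sets CXCR5 and CXCR6 did not pass, and with each array centred on its median 1 ligand and 1 receptor rose in MCF10A.

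More genes of the NF-kB pathway rose than fell in each line. Over all genes 25.5% rose and 25.4% fell in MDA-MB-231, and 29.0% rose and 25.2% fell in MCF10A. In the separate fit of the 9886 genes with a mean above the median, 3887 rose and 4229 fell in MDA-MB-231. In MCF10A 4193 rose and 4137 fell in that fit. The lists here and below were not matched for brightness, and they were chosen with earlier results of these data known. Their counts are therefore descriptions. Of 20 NF-kB genes measured, 12 rose and 2 fell (CHUK -0.20, MAP3K7 -0.31) in MDA-MB-231, with a median change of 0.27, against 0.03 over all genes. In MCF10A 12 rose and 5 fell (NFKB1, NFKBIB, NFKBIE, TNFAIP3 and CHUK), with a median of 0.38, against 0.02. NFKBIA, which encodes the NF-kB inhibitor IkB-alpha, rose by 1.56 ± 0.0367 in MDA-MB-231 (limma adjusted p = 8.09e-15) and by 1.47 ± 0.0367 in MCF10A (4.68e-15), and these responses did not pass a test of their difference (0.172). Its dimmer probe set moved less, by 0.21 and 0.20. NFKBIZ, a nuclear IkB protein that assists transcription of some inflammatory genes, rose by 1.64 in MDA-MB-231 (4.50e-13) and by 0.68 in MCF10A (1.68e-08), and RELA, the p65 subunit, by 1.11 (6.12e-08) and 0.605 (6.18e-05). Both responses were larger in MDA-MB-231 by the interaction test (3.81e-08 and 0.00729). REL, another subunit, did not pass in MDA-MB-231 (0.15, 0.0501) and rose by 0.97 in MCF10A (5.74e-10). CYLD, a deubiquitinase that restrains the pathway, rose by 0.76 and 0.90, but several of its other probe sets changed downward, by as much as -1.36 in MDA-MB-231.

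Next came the cytokines and receptors known to induce these chemokines, to be read against the same shares over all genes. Of 22 measured, 13 rose and 2 fell (IRAK1 -0.155, IRAK3 -0.51) in MDA-MB-231, with a median of 0.33, and 9 rose and 6 fell in MCF10A, with a median of 0.07. IL1B, which encodes interleukin 1 beta, averaged 6.605 ± 0.136 in MDA-MB-231 cells with 2DG, against 6.38 ± 0.102 on vehicle, and 9.81 ± 0.0723 in MCF10A cells with 2DG, against 11.37 ± 0.105 on vehicle (SD, n = 4). It changed by 0.225 in MDA-MB-231 (limma adjusted p = 0.0147), at values of undetected genes, and fell by 1.56 in MCF10A (8.57e-12). IL1RN, which encodes the antagonist of the interleukin 1 receptor, did not pass in MDA-MB-231 (0.065, 0.821) and rose by 2.045 ± 0.195 in MCF10A (1.01e-07), with 0.15 to 0.97 on its other probe sets. IL1RAP, the co-receptor, rose by 0.40 in MDA-MB-231 (3.10e-06), although its other probe set had -0.14, and fell by 1.45 in MCF10A (2.26e-13).

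In MDA-MB-231 the largest rises of this list were in receptors and their kinase. TLR4, the receptor of bacterial lipopolysaccharide, averaged 10.16 ± 0.0299 with 2DG, against 7.375 ± 0.198 on vehicle, and rose by 2.79 ± 0.125 (limma adjusted p = 9.93e-12), with 2.35 to 2.61 on its other probe sets. In MCF10A it did not pass (-0.085, 0.609), at values of undetected genes. IL1R1, the signalling receptor of interleukin 1, rose by 1.90 (7.05e-13), with both MDA-MB-231 groups in the range of undetected genes, against 0.52 in MCF10A (4.69e-06), and IRAK2, a kinase downstream of both receptors, by 1.68 (2.92e-12), against 0.35 (2.70e-04). The responses of TLR4, IL1R1 and IRAK2 differed between the lines (1.04e-09, 4.75e-09 and 7.38e-09). The dimmer probe sets of IL1R1 and IRAK2 moved less, by 0.30 for IL1R1 and by 0.43 and 0.10 for IRAK2 in MDA-MB-231. The actin difference was also higher with 2DG in MDA-MB-231, and with it as a covariate 12 genes of this list rose and 3 fell there.

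**Figure D5:**
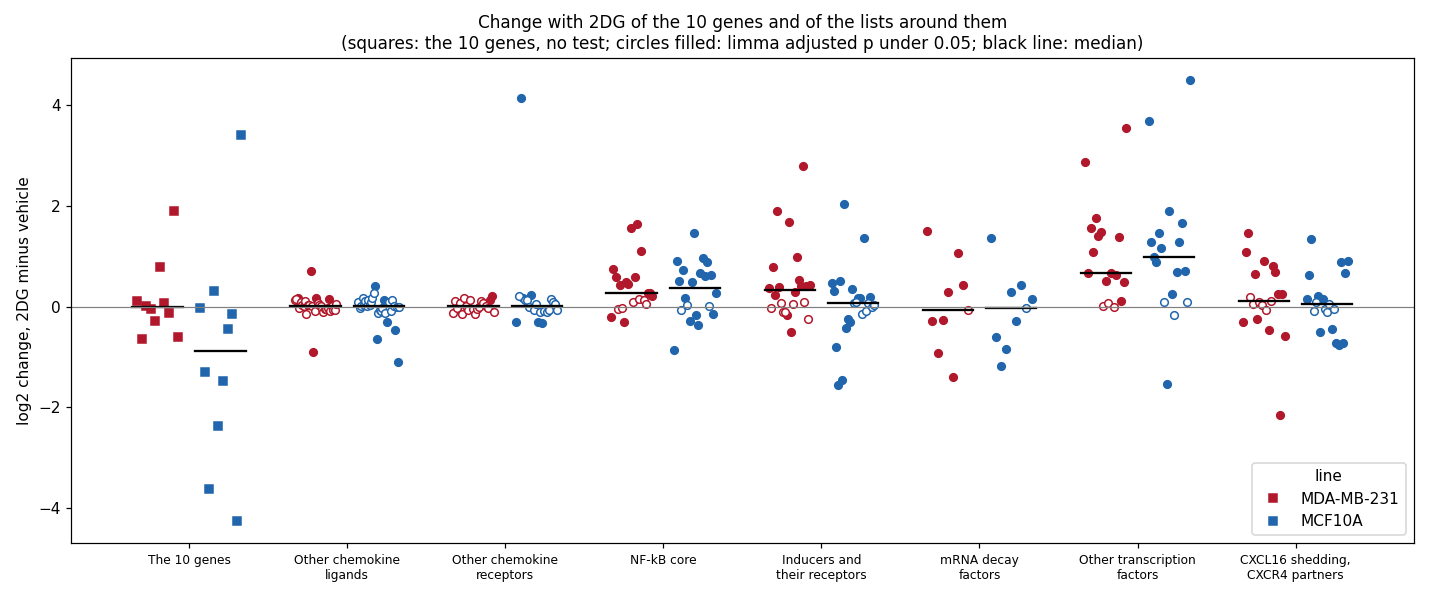
Log2 change with 2DG (vertical axis) of the 10 genes (squares, no test) and of 7 lists of related genes (circles, filled at a limma adjusted p under 0.05), with a black line at each median. Among the other chemokine ligands and receptors ACKR3 stands at 4.15 in MCF10A, and the next called values in size are PPBP at -1.095 in MCF10A and CCL28 at -0.90 in MDA-MB-231, while NF-kB genes and other transcription factors lie mostly above 0 in both lines.

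Chemokine mRNAs carry AU-rich elements, and the factors that act on these went both ways. Of 9 measured, 4 rose and 4 fell in each line. Over all genes 25.5% rose and 25.4% fell in MDA-MB-231, and 29.0% and 25.2% in MCF10A. Larger shares passed among the brighter genes counted above, so nothing is read from these counts. DUSP1, a phosphatase that turns off p38 signalling, rose by 1.515 in MDA-MB-231 (limma adjusted p = 1.31e-14) and by 1.36 in MCF10A (1.52e-14), and ZFP36, tristetraprolin, which promotes decay of such mRNAs, rose by 1.06 (1.12e-10) and 0.43 (6.00e-06). HNRNPD, also called AUF1, fell by 0.91 (1.42e-12) and by 1.18 (3.07e-14), KHSRP, another decay factor, fell by 0.255 (3.00e-05) and by 0.84 (9.91e-12), and TIA1, a translational repressor, fell by 1.395 (8.59e-11) and by 0.28 (0.00441). Other probe sets of HNRNPD, KHSRP and TIA1 went both ways. MAPKAPK2 rose in both lines (0.30 in each), and ELAVL1, which stabilizes such mRNAs, changed by -0.28 and -0.60.

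Other transcription factors known to act on chemokine genes mostly rose, against 25.5% of all genes in MDA-MB-231 and 29.0% in MCF10A. The share among the brighter genes counted above was larger. In MDA-MB-231 14 of 17 were called, all higher, with a median of 0.67, and in MCF10A 13 rose and 1, FOSL1 (-1.545), fell, with a median of 0.98. TSC22D3, a glucocorticoid-induced protein that restrains NF-kB and AP-1, rose by 3.545 ± 0.0457 in MDA-MB-231 (limma adjusted p = 1.48e-17) and by 4.505 ± 0.0457 in MCF10A (3.85e-19). The stress factor ATF3 rose by 2.88 (1.53e-13) and 3.70 (3.41e-15), and CEBPG by 1.76 (4.04e-15) and 1.47 (8.03e-15). FOSL2, an AP-1 subunit, rose by 0.50 (6.47e-09) and 1.895 (3.19e-16), but its other probe sets ran from -0.05 to 0.77 in MDA-MB-231, so the rise there depended on the probe set. The dimmer probe set of CEBPG changed by 0.46 and 1.39. The dimmer probe sets of TSC22D3, 1.38 and 0.11 in MDA-MB-231 and 3.50 and -0.33 in MCF10A, and of ATF3 moved less.

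Genes for shedding of CXCL16 and for signalling of CXCR4 went both ways: 8 of 19 rose and 5 fell in each line. Over all genes 25.5% rose and 25.4% fell in MDA-MB-231, and 29.0% and 25.2% in MCF10A, so the falls were at about the share of all genes. Among the brighter genes counted above larger shares rose and fell, and nothing is read from these counts. ADAM17, a sheddase, rose by 1.08 in MDA-MB-231 (limma adjusted p = 6.58e-13) and by 0.63 in MCF10A (3.43e-10). ADAM10, the main sheddase of CXCL16 at rest, changed by -0.30 and 0.15. RHBDF2, which helps ADAM17 mature, rose by 0.25 (0.0395) and 0.895 (3.72e-07). ARRB1, an arrestin that uncouples CXCR4, rose by 1.46 (6.39e-12) and 1.34 (1.15e-11), although others of its probe sets had -0.68 in MDA-MB-231. SDC1, a heparan sulfate proteoglycan that holds chemokines at the surface, fell by 2.14 (5.48e-12) and by 0.725 (2.94e-06). TIMP3, an inhibitor of ADAM17, fell by 0.59 in MDA-MB-231 (1.02e-06) and rose by 0.90 in MCF10A (4.44e-09), but its other probe sets changed upward in both lines.

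The genes most like 3 of the chemokine genes were found as those with the smallest root mean square difference over the 16 arrays, after each gene was centred on its own mean. For CXCL8 they were PLA2G4A (0.825), MMP10 (0.831), HAS3 (0.936) and EOMES (1.04), which changed by -0.04 to 0.86 in MDA-MB-231 and by -3.41 to -2.78 in MCF10A. None of these 4 had a change in MDA-MB-231 as large as the 1.91 of CXCL8. For CCL20 they were SLC27A2 (0.287), RNASE7 (0.324), ERICH5 (0.326) and MFAP5 (0.33). These changed by -0.28 to 0.02 in MDA-MB-231 and by -1.54 to -0.98 in MCF10A. None of them had a change in MDA-MB-231 as large as the -0.64 of CCL20. For CXCR4 they were NOG (0.957), PLAC8 (1.02), RGS7 (1.07) and LAYN (1.1), with changes of -0.67 to -0.19 in MDA-MB-231 and 0.50 to 2.78 in MCF10A.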

How the data were processed

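The authors deposited log2 values per probe set, summarised with RMA per the submitters' processing notes. Per the labels' protocols, Trizol RNA was treated with DNase and amplified from its 3' end. Which RMA version was used, and if the arrays were normalized jointly, is not given in the sources used here. Values ran from 2.38 to 15.15, with array medians from 6.17 to 6.22. The number of arrays limits the precision, and RMA compresses small signals, so changes into the lowest values are understated.

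Probe sets were named through the platform annotation: of 54675, 41091 had 1 gene, 1801 had several and were left out, 11777 were unnamed and not used, and 6 were controls with a name. None of the 62 control probe sets was tested. The brightest probe set stood for each of 19775 genes. The table was fitted with limma 3.58.1 in R 4.3.3 as 4 group means over 16 arrays, with 12 residual degrees of freedom, two-sided tests and Benjamini-Hochberg adjustment over all genes. The fit was also run on simulated data with independent errors and far fewer changed genes than were called here. That run checks the code and not the calls in these data. The design text calls the replicates independent and run in parallel.

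The 10 genes and the lists were chosen with earlier results of these data known. The named genes were the 10 genes, their ligand and receptors, the 3 called genes per list and line with the largest change, and 4 like genes each for CXCL8, CCL20 and CXCR4. Others named beside a count of 5 or fewer were chosen after their values were seen. Alternatives were other probe sets, scalings, a filter on dim genes, another prior, each line alone, a replicate block, the actin difference as a covariate and leaving out each array.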

Additional observations from a re-analysis of the deposited data

Results flagged for a closer look

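In 3 of 40 groups of 4 arrays, a single array stood apart from the others by more than Dixon's 95% critical value for its gap ratio, where chance gives about 1 in 20 groups. CXCL1 in MDA-MB-231 with 2DG had a ratio of 0.925, from replicate C at 6.04 beside 6.53 to 6.57. CXCL3 in MDA-MB-231 on vehicle had 0.842, from replicate A at 6.57 beside 6.38 to 6.41. CXCL5 in MDA-MB-231 with 2DG had 0.931, from replicate B at 3.23 beside 3.50 to 3.52.

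For 3 of the 10 genes every array with 2DG lay on 1 side of the vehicle arrays in MDA-MB-231 and on the other side in MCF10A, and this difference was not tested because the genes were chosen on it. The response in MDA-MB-231 minus that in MCF10A was 2.27 for CXCL3, 6.17 for CXCL8 and -4.02 for CXCR4 on the log2 scale.

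Among the 40 other genes named by the rule on lists and by the ligand and receptors, 27 had responses that differed between the lines by the limma interaction test (adjusted p under 0.05). The lists were chosen with earlier results of these data known, so this count is a description. The response in MDA-MB-231 minus that in MCF10A was above 0 for TLR4 (2.87), IL1RAP (1.84), IL1B (1.78), IL1R1 (1.38), IRAK2 (1.32), PPBP (1.03), NFKBIZ (0.96), ZFP36 (0.63), KHSRP (0.59), RELA (0.51), PF4 (0.48), ADAM17 (0.45), CCRL2 (0.32), CEBPG (0.3), HNRNPD (0.27) and DUSP1 (0.16). It was below 0 for ACKR3 (-4.17), IL1RN (-1.98), TIMP3 (-1.49), SDC1 (-1.42), FOSL2 (-1.39), TIA1 (-1.12), TSC22D3 (-0.96), ATF3 (-0.82), REL (-0.82), RHBDF2 (-0.65) and CCL28 (-0.26). For DUSP1, HNRNPD, KHSRP, TIA1 and CEBPG the sign depended on the probe set. On their second probe sets CEBPG changed by 0.46 in MDA-MB-231 and 1.39 in MCF10A, and DUSP1 by 0.64 and 1.65. For REL, TSC22D3 and ATF3 the other sign was seen only on the dimmest probe set, at values of undetected genes.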

How the results depend on the processing

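Of 885 recomputed values of the 10 genes, 866 stayed on their side of the call threshold, 18 lost a call and 1 gained it, and no called value changed sign. These genes were chosen on their responses, so calls here and below are descriptions and not tests. Settings that altered only the error left the change as it was, as did choices of probe set for genes with 1 probe set. A change of sign was not possible there. With the second brightest probe set, available for 10523 genes, fewer genes were tested and the genes called were 5291 for 2DG in MDA-MB-231, 5478 for 2DG in MCF10A, 4521 for the difference of responses, 5622 for the lines on vehicle and 6087 for the lines with 2DG.

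The MDA-MB-231 change of CXCL2 was -0.0825 as the mean of its probe sets, -0.0225 without shared probe sets and on its second probe set, and -0.193 with the actin difference as a covariate, and it was called in none of these. The MCF10A change of CXCL2 was -1.08 as the mean of its probe sets, and that of CXCR4 2.16. The difference of responses of CXCL5 was 0.14 without shared probe sets, and that of CXCL16 was -0.325 with arrays centred on their medians, neither called. Leaving out 1 array moved the CXCL16 value from -0.4567 to -0.2983 and ended its call in several cases, and CXCL6 in MCF10A was called without MCF10A vehicle replicate A (-0.2). The filter on dim genes left out CXCL3, CXCL5, CXCL6, CCL2 and CCL20. The fits of each line alone gave the 2DG comparisons only.

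Replicate letters did not pair the arrays: over 24 pairs of the same letter the correlation of deviations ran from -0.099 to 0.088, and 5 pairs correlated best with their own letter. With a replicate block 9941 genes were called in MDA-MB-231 and 10653 in MCF10A, and no call of the 10 genes changed.

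Leaving out 1 array at a time gave 9648 to 9887 calls for 2DG in MDA-MB-231, 10375 to 10476 in MCF10A, 8797 to 9082 for the difference, 10739 to 10996 for the lines on vehicle and 11458 to 11570 with 2DG.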
